A study of Mus musculus with 2 samples.

Results

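The cells described here were 147 spleen cells that the authors' cell table placed in cluster HSC-1 and gave the reference label "Mast cell(Neonatal-Muscle)". They were 9.55% of the 1539 spleen cells of that cluster (95% exact binomial interval 8.13 to 11.1%), out of 6546 spleen cells and 16634 cells in all. The cells came from C57BL/6 mice with an orthotopic liver tumour grown from Hepa1-6, a mouse hepatoma line, placed in the liver at 6 to 8 weeks of age. Bone marrow and spleen gave 1 library each of LSK cells, which are sorted as low or negative for lineage antigens, positive for Sca1 and high for c-Kit. The number of mice per library is not given in the labels, and tumour-free mice were not analysed here. The title of the series concerns the ER stress sensor PERK in splenic progenitors of tumour-bearing mice. Cluster HSC-1 carries the name of a stem cell group while the reference label names a mast cell, so the question asked here is which of the names the RNA of these cells followed.

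The 147 cells were set against 395 spleen cells of cluster MCP that carry the same mast label, and against 831 spleen HSC-1 cells whose label names a multipotent progenitor with high Ctla2a. All 3 groups come from the same spleen library, so every difference is a description of that library, with no test. Intervals are exact 95% limits for counting error only. Cluster and label were both made by the authors from the transcripts compared here, which makes a difference between the groups in label-defining genes a property of how they were chosen. Whether "MCP" stands for a mast cell progenitor is not stated in the sources used here.

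Mast cells arise from haematopoietic progenitors, mature in tissues, and depend on the receptor Kit for survival. They store granules of serglycin proteoglycan loaded with histamine and with proteases: chymases (Cma1, Mcpt4), tryptases (Tpsb2, Tpsab1) and carboxypeptidase A (Cpa3). IgE bound to the high-affinity receptor, built from the Fcer1a, Ms4a2 and Fcer1g products, triggers release of these stores, and the transcription factors Gata2 and Mitf drive many of the genes.

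Promoters of 4 of the genes that the results turn on are shown because they carry the hexamer bound by GATA factors, and Gata2 is among the factors measured in these cells. Each sequence runs 5′ to 3′ on the strand of the gene, from 250 bases before to 50 bases after its start, from RefSeq on GRCm38.p6. Capitals mark AGATAA or TGATAA read on either strand, so that TTATCT and TTATCA are the same motifs on the opposite strand. The windows are chr3:20242132-20242431 for Cpa3, chr14:56062261-56062560 for Mcpt4, chr1:173227180-173227479 for Fcer1a and chr19:11623670-11623969 for Ms4a2, all on the minus strand.
Cpa3: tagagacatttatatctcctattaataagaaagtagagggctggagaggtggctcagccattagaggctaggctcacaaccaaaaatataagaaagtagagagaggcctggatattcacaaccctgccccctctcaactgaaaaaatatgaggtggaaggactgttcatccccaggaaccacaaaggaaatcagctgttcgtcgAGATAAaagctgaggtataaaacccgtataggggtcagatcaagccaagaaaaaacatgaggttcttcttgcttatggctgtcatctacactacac
Mcpt4: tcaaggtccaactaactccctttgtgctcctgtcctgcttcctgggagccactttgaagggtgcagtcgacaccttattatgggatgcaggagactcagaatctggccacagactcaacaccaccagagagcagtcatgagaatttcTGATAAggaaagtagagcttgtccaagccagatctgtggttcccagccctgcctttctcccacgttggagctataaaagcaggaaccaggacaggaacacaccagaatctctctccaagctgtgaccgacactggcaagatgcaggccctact
Fcer1a: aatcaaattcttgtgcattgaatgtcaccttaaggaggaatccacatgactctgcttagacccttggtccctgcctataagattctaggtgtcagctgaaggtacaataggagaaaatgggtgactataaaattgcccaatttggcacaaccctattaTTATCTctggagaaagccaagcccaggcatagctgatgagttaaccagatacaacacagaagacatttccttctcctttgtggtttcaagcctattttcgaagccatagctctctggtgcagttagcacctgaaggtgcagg
Ms4a2: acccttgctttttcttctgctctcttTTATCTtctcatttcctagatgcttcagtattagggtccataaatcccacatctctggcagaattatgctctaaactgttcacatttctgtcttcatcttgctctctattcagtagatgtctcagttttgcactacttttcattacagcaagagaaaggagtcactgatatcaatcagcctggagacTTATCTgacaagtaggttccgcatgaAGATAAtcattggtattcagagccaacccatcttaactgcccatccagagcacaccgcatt
The motif began 46 bases before the start of Cpa3, 103 before that of Mcpt4 and 92 before that of Fcer1a. In Ms4a2, the β chain of the IgE receptor, it occurred 3 times, at 224, 37 and 11 bases before the start. Some genes have several windows, and counted by window the motif was in 7 of 16 of the mast cell markers (43.8%), 2 of 10 of the stem cell markers and 6115 of all 32851 (18.6%). By gene it was in 6 of 13 and 2 of 8 of the markers that had a window. A match describes these letters and is not a measured binding site. Gzmb and Cyp11a1, which with Cpa3 mark the group, had no match in their windows. Nor had Cma1, Gata2, Hdc, Itgb7 and Mcpt8.

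The mast label lay almost wholly in the spleen library. It was given to 550 spleen cells (8.40%) and to 4 bone marrow cells, all 4 of them in cluster MCP. None of the 5049 bone marrow HSC-1 cells carried it, with an exact upper limit of 0.0730%. Within the spleen, 395 of the 553 MCP cells (71.4%) and 147 HSC-1 cells held nearly all of the label, and 2 HSC-2, 5 MP and 1 DCP cell the rest. Spleen HSC-1 also held 27 cells with other mast labels and 24 cells with a basophil label, which are not members. None of the 147 cells shared its barcode with a bone marrow cell, against 16 spleen cells in all that did.

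The mast-labelled HSC-1 cells were shallow. Their median was 1191 UMIs, the molecule counts of this assay (range 813 to 5891), against 1582 (644 to 8500) in the mast-labelled MCP cells and 6890 (1747 to 20306) in the multipotent-labelled HSC-1 cells. The median of the whole spleen library was 9978. Summed over cells, the 3 groups held 207067, 742228 and 5934091 UMIs, so 1 UMI in the mast-labelled HSC-1 cells is worth 4.83 CPM, the group's counts scaled to a common total, and a count of 0 allows up to 14.5 CPM. At 800 UMIs drawn at random from every cell, the median number of genes per cell was 516, 513 and 530, which shows that the groups held alike numbers of genes at equal depth. Malat1, a nuclear long noncoding RNA, made up a median of 9.35% of the UMIs of a mast-labelled HSC-1 cell, 8.26% in the MCP cells and 1.56% in the multipotent-labelled cells. Ribosomal protein genes made up 12.3%, 12.1% and 28.6%, and mitochondrial genes 4.03%, 3.87% and 3.31%. In depth, Malat1 and ribosomal protein genes the medians of the mast-labelled HSC-1 cells lay beside those of the MCP cells, while the mitochondrial shares of the 3 groups overlapped. The part of depth and RNA quality in the other differences was not tested.

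The cells were rich in the markers that their label names. Over all genes averaging 10 CPM or more, 13.6% were 2-fold higher and 21.0% were 2-fold lower than in the multipotent-labelled HSC-1 cells, and 6.07% and 6.31% than in the MCP cells, and each count of list members is to be read against these shares. Of 15 markers of mast cells or basophil progenitors, all 15 were at least 2-fold higher than in the multipotent-labelled HSC-1 cells. Their median log2 ratio was 6.87, and none was at 0 UMIs. The 15, called mast cell markers elsewhere in the text, were listed for both kinds of cell together. Their summed level was 34139 CPM in the mast-labelled HSC-1 cells, 56859 in the MCP cells and 345 in the multipotent-labelled cells. Among them, Mcpt8 stood at 53.1, 53.9 and 2.19 CPM and Prss34 at 135, 259 and 0.169 CPM in the same order. The median depth of the 147 cells is far under that of their library, yet Cma1 and Tpsb2, both on the marker list, stood among the 10 genes with the highest ratios to all other spleen cells. The other 8 included Tpsg1, a membrane-anchored tryptase, Mrgprb2, a receptor by which connective tissue mast cells respond to basic peptides, and Tph1, the enzyme that starts serotonin synthesis. Of the 7 stem cell markers that averaged 10 CPM or more, all 7 were at least 2-fold lower than in the multipotent-labelled cells.

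The chymases were the most abundant mast cell products. Cma1 stood at 12040 CPM in the mast-labelled HSC-1 cells, 16601 in the MCP cells and 27.6 in the multipotent-labelled HSC-1 cells. It took 1.20% of all UMIs of the 147 cells, second only to Malat1, at 8.37%. Mcpt4, the mouse mast cell chymase of connective tissue type, stood at 8113, 16176 and 32.4 CPM in the same order. Both were therefore more than 200-fold above the multipotent-labelled HSC-1 cells (436-fold, 372 to 513, for Cma1 and 251-fold, 216 to 293, for Mcpt4). Over all other spleen HSC-1 cells, whatever their label, the levels were 54.0 CPM for Cma1 and 67.3 CPM for Mcpt4. Mcpt4 differed more from the MCP cells, with a ratio of 0.502 (0.476 to 0.528).

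Cpa3, carboxypeptidase A of the granule and 1 of the 3 genes that mark the group, is on the minus strand of chromosome 3 from 20215620 to 20242181 (GRCm38, GENCODE release M21). It stood at 3859 CPM in the mast-labelled HSC-1 cells, 7440 in the MCP cells and 44.8 in the multipotent-labelled HSC-1 cells. The ratio was 0.519 (0.481 to 0.559) against the first and 86.1 (74.8 to 99.3) against the second. Among the tryptases, Tpsb2 stood at 3777, 6829 and 16.0 CPM and Tpsab1 at 401, 953 and 2.53 CPM. The UMIs of these close copies, like those of the Mcpt genes, may have been split between them in counting. Tpsg1 was the exception, at 526 CPM against 480 in the MCP cells, with a ratio of 1.10 (0.877 to 1.36) whose interval includes 1.

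Over the 13 measured granule protease genes, those averaging 10 CPM or more, 13 were at least 2-fold higher than in the multipotent-labelled HSC-1 cells (median log2 ratio 6.40). The lowest of them, Ctsg, had 7 UMIs and a ratio of 2.07 (0.810 to 4.43), which includes 1, and its log2 ratio was −0.28 in thinned cells. Against the MCP cells, 5 were at least 2-fold lower and none was 2-fold higher (median −0.95). The 5 were Mcpt1, Mcpt2, Ctsg, Gzmb and Tpsab1, of which Mcpt1 and Gzmb turned and Tpsab1 was under 2-fold lower among cells of 879 to 2115 UMIs, while the summed level of the list kept its direction. The summed level of the list was 29305 CPM, 1.71-fold lower than the 50138 CPM of the MCP cells, against 149 CPM in the multipotent-labelled cells. On a scale where the multipotent-labelled cells stand at 0% and the MCP cells at 100%, the median protease gene stood at 51.6%, from 12.2% for Ctsg to 110% for Tpsg1.

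**Figure D1:**
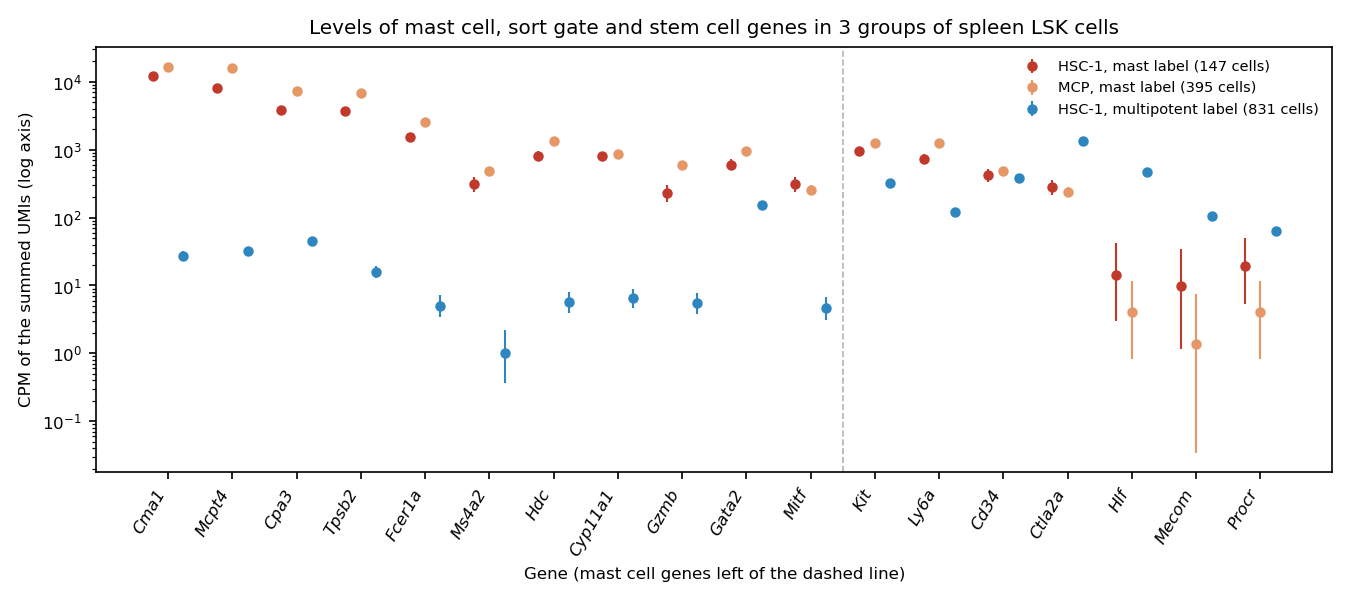
Levels in CPM of the summed UMIs (log axis) of mast cell genes, left of the dashed line, and of sort gate and stem cell genes, right of it, in the 3 groups of spleen cells; bars are exact 95% intervals for counting error. Cma1, at 12040 CPM in the mast-labelled HSC-1 cells, and the other mast cell genes lie near the MCP cells, while Hlf lies at 14.5 CPM against 470 CPM in the multipotent-labelled cells.

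Genes of mast cell receptors were present. Fcer1a, the IgE-binding chain, stood at 1526 CPM in the mast-labelled HSC-1 cells, 2595 in the MCP cells and 5.06 in the multipotent-labelled HSC-1 cells, and Ms4a2 at 314, 484 and 1.01 CPM. Fcer1g, the signalling chain shared with other Fc receptors, stood at 2371, 2751 and 92.0 CPM. All 3 chains of the receptor were thus more than 20-fold above the multipotent-labelled cells (302-fold, 310-fold and 25.8-fold) and somewhat below the MCP cells (ratios 0.588, 0.649 and 0.862). Il1rl1, the receptor for the alarmin interleukin 33, stood at 1005, 1283 and 6.24 CPM, and Mrgprb1 at 584, 971 and 2.02 CPM.

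Kit, the receptor for stem cell factor, and Ly6a, which encodes Sca1, are both used in the sort, and both stem cells and mast cells can carry them. Kit stood at 956 CPM in the mast-labelled HSC-1 cells, 1269 in the MCP cells and 324 in the multipotent-labelled HSC-1 cells. Ly6a stood at 729, 1275 and 119 CPM. Relative to all RNA both were therefore higher than in the multipotent-labelled cells, 2.95-fold (2.54 to 3.42) for Kit and 6.10-fold (5.09 to 7.29) for Ly6a, and lower than in the MCP cells. The multipotent-labelled cells had more UMIs each, and per cell Kit was lower in the mast-labelled HSC-1 cells, at 1.35 UMIs against 2.31. Ly6a stayed higher per cell, at 1.03 UMIs against 0.853. Cd34, found on progenitors of many lineages and on mouse mast cells, stood at 420, 481 and 380 CPM, and its intervals include a ratio of 1 against both groups. Ly6a belongs to a family of similar genes, so its UMIs may include those of a relative.

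Of 16 measured IgE receptor and surface receptor genes, none differed 2-fold from the MCP cells (median log2 ratio −0.36), and 15 of 17 were at least 2-fold higher than in the multipotent-labelled cells (median 3.63). The member that was 2-fold lower was Csf2ra, a chain of the GM-CSF receptor, with 1 UMI and a ratio of 0.268 (0.00672 to 1.52). Itgb7, the integrin β7 chain used by mast cell progenitors to enter tissue, stood at 468, 410 and 36.9 CPM. Its ratio to the MCP cells was 1.14 (0.900 to 1.44), above most members of the list.

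Genes for making and storing mediators followed. Hdc, which makes histamine, stood at 816 CPM in the mast-labelled HSC-1 cells, 1355 in the MCP cells and 5.73 in the multipotent-labelled HSC-1 cells. Srgn, the serglycin core on which granule contents are packed, stood at 4221, 5745 and 1212 CPM, and Tph1 at 435, 591 and 1.35 CPM. Serglycin was thus shared by all 3 groups, while Hdc and Tph1 were more than 100-fold above the multipotent-labelled cells (142-fold, 98.1 to 212, and 322-fold, 157 to 770). Of the 18 measured members, 1 was 2-fold lower than in the MCP cells, Ltc4s of leukotriene synthesis, with 2 UMIs and a ratio of 0.239 (0.0277 to 0.942). Against the multipotent-labelled cells 16 of the 18 were at least 2-fold higher.

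Cyp11a1, which cleaves cholesterol to start steroid synthesis, is another of the marker genes and lies on the plus strand of chromosome 9 from 58006411 to 58027023. It stood at 802 CPM in the mast-labelled HSC-1 cells, 878 in the MCP cells and 6.57 in the multipotent-labelled HSC-1 cells. The 2 mast-labelled groups did not differ beyond counting error (ratio 0.913, 0.765 to 1.08), and the ratio to the multipotent-labelled cells was 122 (85.6 to 178). Fdx1, which passes electrons to this enzyme, stood at 145, 175 and 52.9 CPM. The later enzymes Cyp17a1, Cyp21a1, Cyp11b1, Hsd3b1 and Hsd3b6 were at 0 UMIs in the 147 cells.

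Gzmb, granzyme B, the last of the marker genes, lies on the minus strand of chromosome 14 from 56258838 to 56262260. It stood at 227 CPM in the mast-labelled HSC-1 cells, 586 in the MCP cells and 5.56 in the multipotent-labelled HSC-1 cells, and it came from few cells: 11 of the 147 (7.48%, 3.79 to 13.0%) held its 47 UMIs, at most 9 in a cell. Those 11 cells were deep, with a median of 2189 UMIs. All 47 UMIs lay in the 73 deeper cells and none in the 74 shallower ones, and 41 lay in 9 of the 26 cells at or above the lowest depth of the multipotent-labelled cells. In the MCP cells 42 of 395 (10.6%) held 435 UMIs, of which 62.8% lay in 10 cells. The difference from the MCP cells, 2.58-fold lower (1.91 to 3.57), did not hold in a shared range of depth: among the 117 and 286 cells of 879 to 2115 UMIs, whose medians were 1191 and 1376 UMIs, Gzmb stood at 176 CPM against 51.3 CPM, a ratio of 3.44 (1.86 to 6.43). The 24 basophil-labelled HSC-1 cells of the spleen held Gzmb at 7731 CPM but Mcpt4 at 35.4 and Ly6a at 17.7 CPM. Gzmb thus marked few of the mast-labelled HSC-1 cells, unlike Cpa3 and Cyp11a1.

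Single cells showed the same separation. Every cell was thinned to 800 UMIs, which left out 4 MCP cells and none of the other groups. A mast-labelled HSC-1 cell then held a median of 27.0 UMIs of the 15 markers of mast cells or basophil progenitors (range 0 to 87). An MCP cell held 45.0 (5 to 130) and a multipotent-labelled HSC-1 cell 0 (0 to 8). At least 10 such UMIs were found in 133 of 147 cells (90.5%, 84.5 to 94.7%), in 388 of 391 and in none of 831. The 2 mast-labelled groups overlapped broadly, and 1 cell of the 147 held none of these UMIs at this depth.

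Cma1 was detected in 93.2% of the thinned mast-labelled HSC-1 cells, 96.2% of the MCP cells and 2.29% of the multipotent-labelled HSC-1 cells. Cpa3 gave 89.8%, 95.7% and 2.29%, and Cyp11a1 gave 41.5%, 46.0% and 0.842%. With all UMIs kept, Cma1 was found in 142 of 147, 388 of 395 and 125 of 831 cells, Cpa3 in 95.2%, 98.5% and 16.4%, and Cyp11a1 in 59.9%, 72.4% and 4.09%, at the median depths given above. Spleen MEP cells, a cluster that should lack mast cell genes, gave thinned shares of 1.23% for Cma1, 1.46% for Cpa3 and 0.112% for Cyp11a1. The shares of all 3 genes in the multipotent-labelled cells were low but above those in the MEP cells. In summed UMIs, Cpa3 stood at 44.8 CPM in the multipotent-labelled cells against 10.9 CPM in the MEP cells, and Cma1 at 27.6 against 11.2 CPM. Whether these low levels are background RNA was not tested. The shares in the mast-labelled HSC-1 cells were far above both.

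Mast and stem cell markers were seldom in the same cell. At least 1 UMI of the 10 stem cell markers was found in 11 of the 147 thinned cells (7.48%, 3.79 to 13.0%), in 34 of 391 MCP cells (8.70%) and in 456 of 831 multipotent-labelled HSC-1 cells (54.9%). Of the 147, 10 cells (6.80%) held at least 10 mast cell UMIs together with a stem cell UMI, and the same held for 34 MCP cells. The mast-labelled HSC-1 cells thus carried stem cell markers about as often as the MCP cells, with overlapping intervals. Of the other mature lineages counted, dendritic cell markers had the highest share in the 147 cells. At least 1 UMI of them was found in 47.6% of the 147 cells, 47.3% of the MCP cells and 41.3% of the multipotent-labelled cells. A T, NK or innate lymphoid marker was found in 24.5%, 22.0% and 17.4% in the same order. With all UMIs kept, Cst3 alone gave 493 of the 816 CPM of the dendritic cell markers in the 147 cells. Ciita, Clec9a and Cxcl9 of that list were at 0 UMIs. In the 147 cells an erythroid marker was found in 6.80%, a neutrophil progenitor marker in 2.04% and a B cell marker in 0.680%, against 5.37%, 10.5% and 1.02% in the MCP cells.

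**Figure D2:**
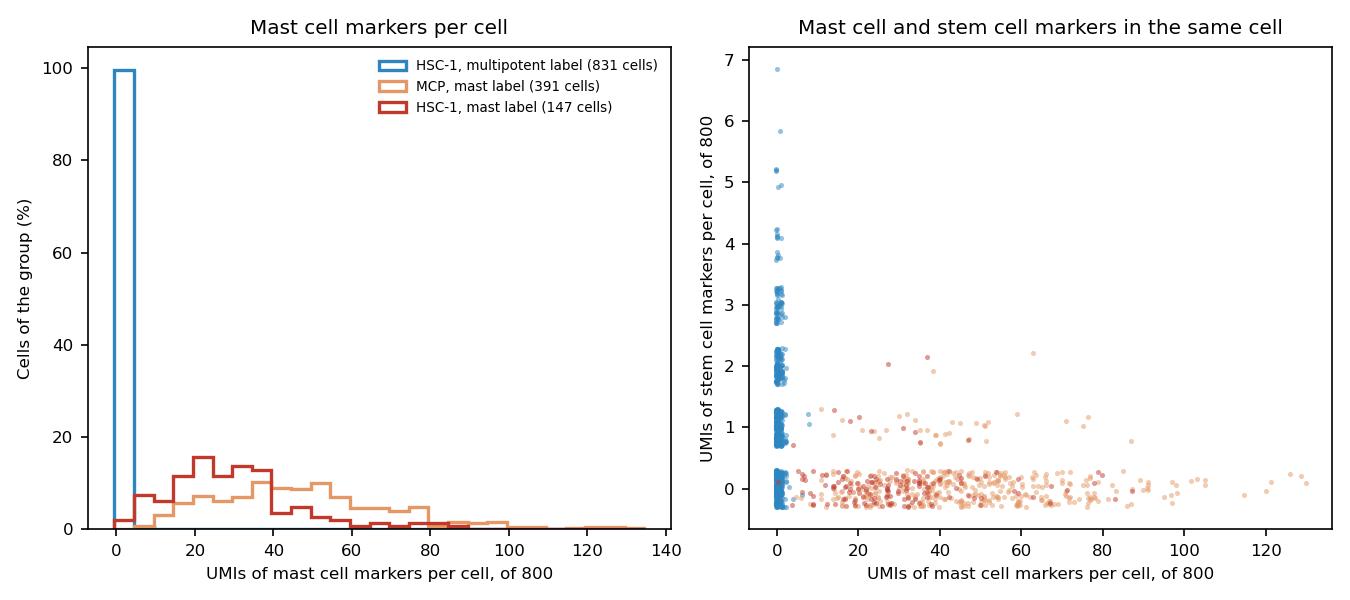
Left, the share of cells (%) of each group by the UMIs of 15 markers of mast cells or basophil progenitors among 800 UMIs per cell. Right, UMIs of these mast cell markers against UMIs of 10 stem cell markers, 1 point per cell, moved slightly at random so that equal values can be seen. The mast-labelled HSC-1 cells, with a median of 27.0 mast cell UMIs, overlap the MCP cells, with a median of 45.0, while no multipotent-labelled cell holds more than 8.

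Most stem cell genes were lower in the 147 cells than in the multipotent-labelled cells. Hlf, a transcription factor of long-term stem cells, had 3 UMIs in 2 of the 147 cells, or 14.5 CPM, against 4.04 CPM in the MCP cells and 470 CPM in the multipotent-labelled HSC-1 cells, where 713 of 831 cells held it. Its ratio to the multipotent-labelled cells was 0.0308 (0.00635 to 0.0901). Mecom, another stem cell regulator, had 2 UMIs (9.66 CPM) against 107 CPM, and Procr, the stem cell surface protein EPCR, 4 UMIs in 1 cell (19.3 CPM) against 63.7 CPM. Of 19 measured long-term stem cell genes, none was 2-fold higher and 15 were at least 2-fold lower than in those cells (13.6% and 21.0% of all genes), with a median log2 ratio of −2.60, or −1.85 with genes at 0 UMIs set at their bound. The summed level differed less, at 2487 against 5224 CPM (ratio 0.476, 0.436 to 0.519).

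A few members of the list were kept. Ifitm1, an interferon-inducible membrane protein, stood at 990 CPM against 1239 CPM in the multipotent-labelled HSC-1 cells, and Txnip, a thioredoxin inhibitor, at 956 against 739 CPM. In the MCP cells they stood at 1017 and 709 CPM, so that Txnip was higher in the mast-labelled HSC-1 cells (ratio 1.35, 1.14 to 1.59) and the interval for Ifitm1 (0.830 to 1.14) includes 1. Together the 2 genes gave most of the UMIs of the list. Against the MCP cells, 3 of 10 measured members were at least 2-fold higher and none was lower (6.07% and 6.31% of all genes), with a median log2 ratio of 0.51. Those 3 included Ifitm3 at 86.9 against 41.8 CPM (ratio 2.08, 1.10 to 3.84) and Angpt1, a ligand of the receptor Tek, at 58.0 against 24.3 CPM (2.39, 1.05 to 5.24), both still more than 8-fold below the multipotent-labelled cells (8.06-fold and 8.90-fold).

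Multipotent and lymphoid-primed genes followed the same order. Ctla2a, for which the label of the contrast group is named, stood at 280 CPM in the mast-labelled HSC-1 cells, 240 in the MCP cells and 1321 in the multipotent-labelled HSC-1 cells, and reads of its near copy Ctla2b may be among them. Flt3, a cytokine receptor of lymphoid-primed progenitors, had 1 UMI (ratio to the multipotent-labelled cells 0.0267, 0.000675 to 0.149), and so had Cd27 (0.0258, 0.000654 to 0.144). Of 18 measured members, 13 were at least 2-fold lower than in the multipotent-labelled cells and 1 was higher (21.0% and 13.6% of all genes), with a median log2 ratio of −3.27 (−2.34 at the bound). Against the MCP cells, 4 of 13 were at least 2-fold higher and 1 was lower. Those 4 included Adgrg1 and Adgrl4, adhesion G protein-coupled receptors, at 48.3 against 14.8 CPM (ratio 3.26, 1.24 to 8.45) and 33.8 against 8.08 CPM (4.18, 1.20 to 15.1), which rest on 10 and 7 UMIs.

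The transcription factors of the lineage were present. Gata2 stood at 604 CPM in the mast-labelled HSC-1 cells, 957 in the MCP cells and 152 in the multipotent-labelled HSC-1 cells, and Mitf at 314, 257 and 4.72 CPM. Gata1 stood at 48.3, 56.6 and 1.69 CPM, and Spi1, the myeloid factor PU.1, at 198, 167 and 214 CPM. Mitf and Gata1 thus lay with the MCP cells, while Spi1 was shared by the 3 groups. None of 17 measured factors differed 2-fold from the MCP cells (median log2 ratio −0.22). Against the multipotent-labelled cells 9 of 18 were at least 2-fold higher and 4 lower (13.6% and 21.0% of all genes). The count of lower factors was thus near the share over all genes. Among the factors that were lower were Runx1 (82.1 against 213 CPM) and Zfpm1, the GATA partner FOG1 (24.1 against 110 CPM). Cebpa, Cebpe and Gfi1b were at 0 UMIs.

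Cytokine genes were led by a chemokine. Ccl2, a monocyte chemokine, stood at 749 CPM in the mast-labelled HSC-1 cells, 1250 in the MCP cells and 3.71 in the multipotent-labelled HSC-1 cells, and Il4 at 169, 146 and 6.24 CPM. Ccl7 had 5 UMIs (24.1 CPM, against 124 CPM in the MCP cells), and Tnf had 0 UMIs against 37 in the MCP cells, at least 3.44-fold lower. Il5, Il9 and Areg were at 0 UMIs. Of 10 measured members, 2 were at least 2-fold lower than in the MCP cells and none was higher (6.31% and 6.07% of all genes). Against the multipotent-labelled cells, 7 of 9 were at least 2-fold higher and 2 were lower (13.6% and 21.0%), and the summed level was 3.25-fold higher (2.90 to 3.64).

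Across all genes, the mast-labelled HSC-1 cells resembled the MCP cells. The comparison covered 7779 genes that averaged 10 CPM or more over both groups. A 2-fold higher level than in the MCP cells was found for 472 of them (6.07%) and a 2-fold lower level for 491 (6.31%), with a median log2 ratio of 0.03. The intervals of 340 and 389 of them include a ratio of 1, at a median of 6 and 2 UMIs in the mast-labelled HSC-1 cells. Most of these calls are therefore within counting error. Of the 1584 genes averaging 100 CPM or more, 1 (0.0631%) was 2-fold higher and 9 (0.568%) were 2-fold lower, and all 10 intervals exclude 1. The 5 of 13 protease genes called lower stand beside 6.31% of all genes, and 3 of those 5 did not keep the call among cells of 879 to 2115 UMIs.

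The gene that was higher was Tnfaip3, an inhibitor of NF-κB signalling, at 135 against 66.0 CPM (2.05-fold, 1.24 to 3.32). The 9 that were lower were headed by Mcpt1 (38.6 against 302 CPM, 7.81-fold lower) and Mcpt2 (48.3 against 224 CPM, 4.63-fold lower), β-chymases of mucosal mast cells. In the MCP cells 97.8% of the Mcpt1 UMIs and 92.2% of the Mcpt2 UMIs lay in 10 cells of 395, and among cells of 879 to 2115 UMIs Mcpt1 stood at 27.1 against 7.32 CPM in the MCP cells, a ratio of 3.71 whose interval (0.627 to 25.3) includes 1. Mcpt2 stayed lower there, at 6.79 against 58.6 CPM (ratio 0.116, 0.00282 to 0.710), on 1 UMI in the mast-labelled HSC-1 cells. Gzmb and Tpsab1 were among the 9, and the others were Slc45a3, Timp2, S100a6, Vwa5a and P4ha2, between 2.44-fold and 2.05-fold lower. Tpsab1 was 1.62-fold lower (1.25 to 2.13) in that range of UMIs, which ends its 2-fold call. The mucosal chymases were thus products of few cells in either group.

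Below 100 CPM the largest ratios rest on few UMIs. The 12 highest ratios to the MCP cells, from Yae1d1 (4.66, 1.89 to 11.9) to Fut8 (2.87, 1.23 to 6.56), rest on 11 to 15 UMIs each and include the transcription factor Tfap4 (58.0 against 13.5 CPM). The 12 lowest include Wipi2, an autophagy protein, with 1 UMI and a ratio of 0.0874 (0.00216 to 0.515). Ctsg, the neutrophil and mast cell protease cathepsin G, is also among them, with 7 UMIs and a ratio of 0.213 (0.0837 to 0.452).

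Against the multipotent-labelled cells of their own cluster the contrast was wide. Among 8465 genes, 1154 (13.6%) exceeded the multipotent-labelled HSC-1 cells by 2-fold or more and 1774 (21.0%) were lower by as much, with intervals excluding 1 for 973 and 1091. At an average of 100 CPM or more these counts were 274 (17.4%) and 205 (13.0%) of 1571, all with intervals that exclude 1. The 12 highest ratios were Tpsg1, Kcne3, Cma1, Mrgprb2, Hpgd, Tph1, Ms4a2, Fcer1a, Mrgprb1, Mcpt4, Tpsb2 and Ccl2, from 202-fold for Ccl2 to 625-fold for Tpsg1. The 12 lowest were all at 0 UMIs in the 147 cells and included Adgrg3 (at least 8.60-fold lower), the endothelial and stem cell factor Erg (5.73-fold), Eng, a TGF-β co-receptor (5.27-fold), the integrin Itga6 (5.62-fold) and Selp, P-selectin (5.15-fold). The 15 of 15 mast markers and the 13 of 13 proteases that were higher stand beside a background of 13.6%, and the label was itself assigned from such transcripts.

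**Figure D3:**
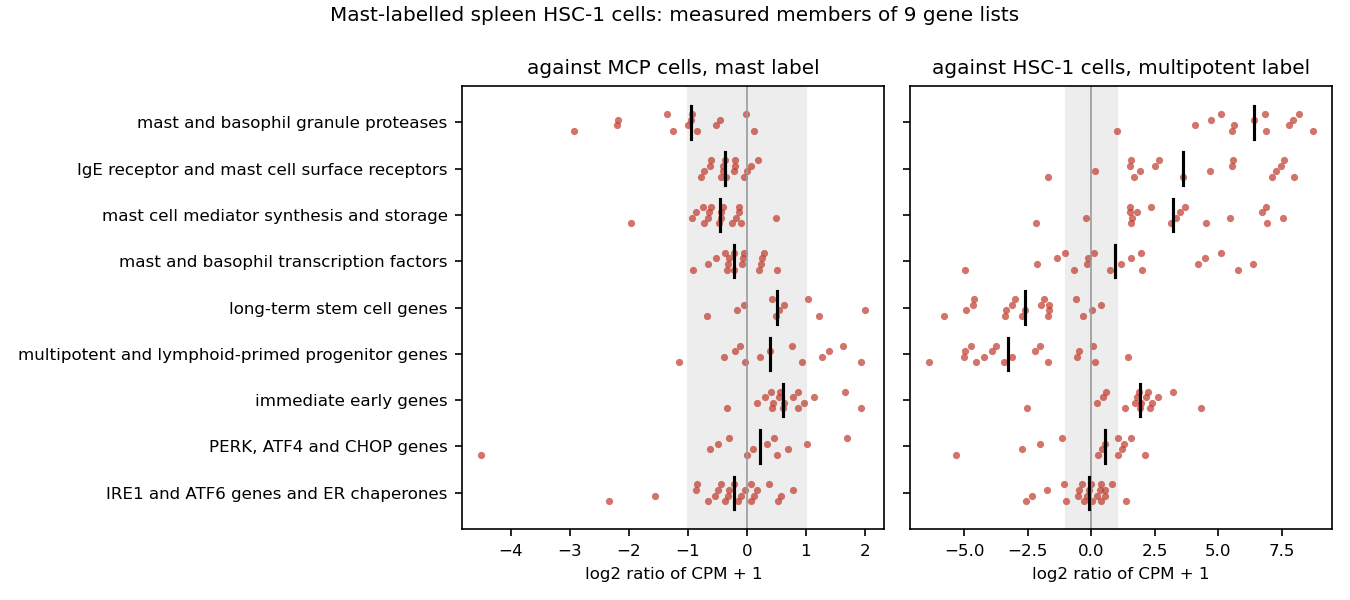
Log2 ratio of CPM + 1 of each measured member of 9 gene lists (points) in the mast-labelled HSC-1 cells against the MCP cells (left) and against the multipotent-labelled HSC-1 cells (right); bars mark medians, the grey band is less than 2-fold, and members at 0 UMIs stand where the added 1 CPM puts them. The protease median is −0.95 on the left and 6.40 on the right, and that of the stem cell genes 0.51 and −2.60.

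Measures across all genes gave the same order. Both mast-labelled groups were chosen by the same label, made from these transcripts, so a likeness between them was favoured by that choice. The correlation of log2 CPM across genes averaging 100 CPM or more was 0.96 with the MCP cells over 1584 genes and 0.49 with the multipotent-labelled HSC-1 cells over 1571 genes. This is a description across genes of the same library, which are not replicates. Among the 15 nearest neighbours of each of the 147 cells, with all spleen cells at 800 UMIs, 55.6% were mast-labelled MCP cells, 31.4% other mast-labelled HSC-1 cells and 5.94% other MCP cells. Only 0.952% were multipotent-labelled HSC-1 cells. In 144 of the 147 cells (98.0%) most neighbours were MCP or mast-labelled HSC-1 cells, and in 2 cells most were other HSC-1 cells.

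The mast-labelled HSC-1 cells were also less rich in granule transcripts than the MCP cells within a shared range of depth. The match is of the range only, since the medians within it were 1191 and 1376 UMIs. Among cells of 879 to 2115 UMIs, the middle range of the mast-labelled HSC-1 cells, the summed protease level was 34192 CPM in the 117 HSC-1 cells and 53503 CPM in the 286 MCP cells. Mcpt4 had a ratio of 0.510 (0.482 to 0.540), Tpsb2 0.592 (0.543 to 0.644) and Fcer1a 0.627 (0.546 to 0.719), near their values over all cells. Cpa3, at 0.609 (0.557 to 0.665), lay closer to 1 than over all cells. Tpsab1 moved from 0.421 to 0.616 (0.470 to 0.797), while Malat1 had a ratio of 1.00 (0.985 to 1.02). Ly6a was also lower, at 0.692 (0.565 to 0.843). Kit (0.865, 0.715 to 1.04) and Cyp11a1 (0.906, 0.731 to 1.12) had intervals that include 1, and Itgb7 was higher, at 1.42 (1.09 to 1.85). Mitf had an interval that includes 1 as well (0.992 to 1.96). Hdc (0.668, 0.549 to 0.810) and Gata2 (0.746, 0.586 to 0.941) were lower. So were Il1rl1 (0.781, 0.648 to 0.937) and Srgn (0.805, 0.738 to 0.877). Among the proteases Gzmb was higher (3.44, 1.86 to 6.43), and the interval of Mcpt1 includes 1. The lower level thus held for the summed proteases and for several other mast cell genes, and not for every protease or mast cell gene.

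Immediate early genes, which cells switch on within minutes of stimulation, were higher in the mast-labelled HSC-1 cells. Their summed level was 21090 CPM against 14000 CPM in the MCP cells (ratio 1.51, 1.45 to 1.56) and 4525 CPM in the multipotent-labelled HSC-1 cells. Jun stood at 5066, 3274 and 819 CPM and Fos at 2139, 1171 and 454 CPM, both subunits of the AP-1 factor. In that range of UMIs, where the MCP cells were still the deeper, the ratios to the MCP cells were 1.86 (1.69 to 2.04) for Jun, 1.82 (1.56 to 2.13) for Fos, 2.40 (1.83 to 3.13) for Junb and 2.38 (1.71 to 3.30) for Egr1. Of 17 measured members, 3 were at least 2-fold higher than in the MCP cells (6.07% of all genes), Klf4, Nr4a1 and Egr3, with 4 to 15 UMIs each, and none was lower; the median log2 ratio was 0.62. Against the multipotent-labelled cells 13 of 17 were at least 2-fold higher, led by Klf2 at 2560 against 128 CPM.

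**Figure D4:**
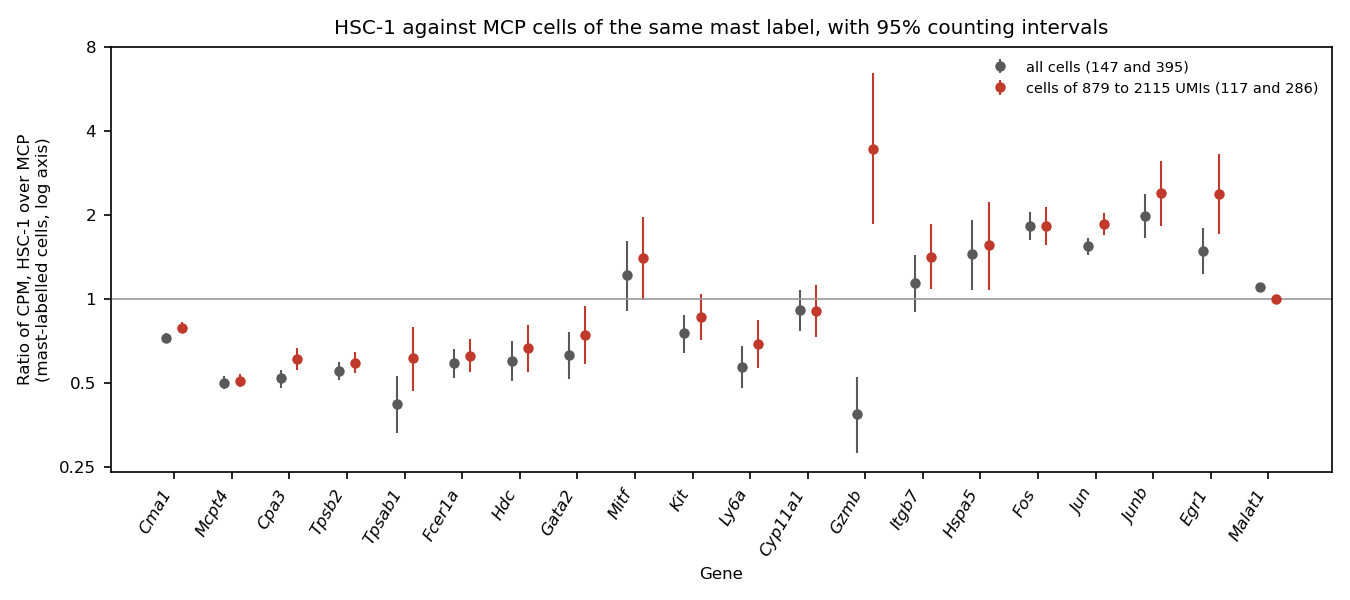
Ratio of CPM in mast-labelled HSC-1 cells over mast-labelled MCP cells for single genes (log axis), over all cells and over cells of 879 to 2115 UMIs, with exact 95% intervals for counting error. Mcpt4 stays near 0.5 in both (0.502 and 0.510), Jun lies above 1 in both (1.55 and 1.86), and Gzmb changes from 0.387 to 3.44.

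The 147 cells also differed among themselves with depth. In the 74 cells at or under the median, the summed protease level was 36485 CPM, in the 73 deeper cells 25387 CPM, and in the 26 deepest, those at or above the lowest depth of the multipotent-labelled cells, 15801 CPM. Cma1 stood at 15718, 10032 and 5390 CPM in the same order, and Malat1 at 106636, 71166 and 55060 CPM. The summed long-term stem cell genes went the other way, at 1368, 3098 and 4506 CPM, as did the immediate early genes, at 17346, 23132 and 23856 CPM. Cyp11a1 (848, 776 and 677 CPM) and Kit (1067, 896 and 854 CPM) varied less. Deeper cells thus held a smaller share of granule RNA, though even in the deepest 26 the proteases stood far above the 149 CPM of the multipotent-labelled cells. The summed long-term stem cell genes of the deepest 26 came near the 5224 CPM of the multipotent-labelled cells, while the 10 stem cell markers stood at 265 CPM (157 to 419) in them against 1107 CPM.

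A second reference label of the authors' table split the cells. It placed 107 of the 147 (72.8%, 64.8 to 79.8%) in the groups Ba-1 to Ba-4, 71 of them in Ba-4, and 31 (21.1%, 14.8 to 28.6%) in a group named T-cell-Cd3d+. Only 4 (2.72%) were called HSC-1 there, against 823 of the 831 multipotent-labelled cells. In the MCP cells 360 of 395 (91.1%) were Ba-1 to Ba-4 and 24 (6.08%) T-cell-Cd3d+. The 31 cells held 0 UMIs of Cd3e, Thy1 and Trbc2. Their summed T, NK and innate lymphoid markers stood at 492 CPM, of which Il7r gave 13 of 20 UMIs, against 343 CPM in the 107 cells. Their proteases stood at 27565 against 31080 CPM and Cma1 at 10869 against 12901 CPM, so mast cell transcripts were abundant in these 31 cells as well. Over all 147 cells, 8 of 12 T, NK or innate lymphoid markers, among them Trbc1, Cd3d, Cd3e, Cd3g and Thy1, were at 0 UMIs, and the summed level was 362 CPM against 396 in the MCP cells and 325 in the multipotent-labelled cells.

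Genes of the unfolded protein response were measured because the series concerns PERK, which halts translation and induces Atf4 when unfolded protein gathers in the endoplasmic reticulum. Eif2ak3, which encodes PERK, had 1 UMI in the 147 cells and could not be compared at this depth. Atf4 stood at 179 CPM in the mast-labelled HSC-1 cells, 125 in the MCP cells and 131 in the multipotent-labelled HSC-1 cells, with intervals of the ratio that include 1 (0.947 to 2.11 and 0.952 to 1.90). Of the PERK, ATF4 and CHOP genes, 2 of 12 were at least 2-fold higher and 1 lower than in the MCP cells, and 6 of 13 higher and 4 lower than in the multipotent-labelled cells. The shares over all genes were 6.07% and 6.31% in the first comparison and 13.6% and 21.0% in the second. Ddit4, an mTOR inhibitor induced by stress, stood at 116, 56.6 and 26.1 CPM (2.05-fold, 1.19 to 3.46, over the MCP cells).

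Most genes of the IRE1 and ATF6 branches and most ER chaperones differed less than 2-fold from either group. Hspa5, the chaperone BiP, stood at 343, 237 and 265 CPM, with ratios of 1.45 (1.08 to 1.92) to the MCP cells and 1.30 (1.01 to 1.64) to the multipotent-labelled HSC-1 cells. Xbp1 stood at 62.8, 67.4 and 61.0 CPM, Atf6 at 38.6, 29.6 and 29.7 CPM, and Ern1, which encodes IRE1, had 2 UMIs. None of 23 measured members was 2-fold higher than in the MCP cells and 2 were lower. Calr, the chaperone calreticulin, was 5.12-fold lower than in the multipotent-labelled cells, at 86.9 against 445 CPM. The authors' ER stress score had a median of 0.07 in the mast-labelled HSC-1 cells, 0.08 in the MCP cells and 0.09 in the multipotent-labelled cells.

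Other scores of the authors gave small differences. The median stemness score was −0.07 in the mast-labelled HSC-1 cells, −0.04 in the MCP cells and −0.00 in the multipotent-labelled HSC-1 cells, and the range within each group was far wider (−0.45 to 0.35 in the 147 cells). The median pseudotime was 8.50 in the 146 mast-labelled HSC-1 cells that had a value, 9.78 in the MCP cells and 5.81 in the multipotent-labelled cells. By the median of pseudotime the 147 cells thus lay closer to the MCP cells, although pseudotime was computed by the authors from the same transcripts. Their quartiles were 7.67 and 9.32, against 9.65 and 9.82 in the MCP cells and 4.01 and 8.00 in the multipotent-labelled cells. Their 90th percentile, 9.60, lay under the lower quartile of the MCP cells. Only 759 of the 831 multipotent-labelled cells had a value.

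Several S phase and most interferon genes were lower than in the multipotent-labelled HSC-1 cells. Of 16 measured S phase genes none was 2-fold higher and 7 were at least 2-fold lower than in those cells (21.0% of all genes were lower), and none of 9 differed 2-fold from the MCP cells. Their summed level was 0.476 of that in the multipotent-labelled cells (0.366 to 0.608). Of 8 measured G2 and M phase genes 1 was 2-fold higher and 4 were lower than in the multipotent-labelled cells, and their summed level did not differ beyond counting error from that of either group (ratios 0.794, 0.587 to 1.05, and 1.16, with an interval that also includes 1). Of 11 measured interferon-stimulated genes, 9 were at least 2-fold lower and 1 higher than in the multipotent-labelled cells (21.0% and 13.6% of all genes; median log2 ratio −1.92, or −1.42 at the bound). No eosinophil gene reached a mean of 10 CPM in either comparison. Cd74, the invariant chain of class II antigen presentation, stood at 116 CPM against 178 in the MCP cells and 115 in the multipotent-labelled cells.

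Few of these cells were marked as doublets. A simulation-based doublet caller marked 2 of the 147 cells (1.36%), none of the 395 MCP cells, 8 of the 831 multipotent-labelled HSC-1 cells (0.963%) and 186 of all 6546 spleen cells (2.84%). The 147 cells had few UMIs, and how well the caller finds doublets at that depth was not tested. All were kept.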

How the data were processed

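Reads were aligned to GRCm38 with Cell Ranger 3.1.0, per the design text, and the authors deposited raw UMI counts per gene and cell; the submitters' processing notes list mm9 and Seurat 3.1.5, and the labels give kit version 3.1 where the design text gives 3, conflicts that were not settled. The authors deposited a table with a cluster, 2 reference labels, pseudotime and scores per cell; how each score was made is not given in the sources used here. Filters on cells are not stated. The files hold 31053 genes.

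Counts were summed over the cells of a group and scaled to CPM in Python 3.11.15. Ratios use log2(CPM + 1) for genes with an average of 10 CPM over both groups, so the log2 scale understates low genes. A 2-fold difference was called. Ratios, their exact 95% intervals and exact binomial intervals cover counting error only. With 1 library per tissue and groups taken from it by label, no test was made. Cells were thinned to 800 UMIs for shares and for neighbours (scanpy 1.11.5, 2000 variable genes, 30 components). All cells were kept; doublets called by Scrublet were left out as an alternative. TMM scaling used edgeR 4.0.16 in R 4.3.3. The calculations were tested on simulated data.

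Members and gene lists were chosen with earlier results of these data known. Genes were named by a rule: the 3 markers, the 12 highest and 12 lowest ratios of each comparison among genes of 50 CPM in a group, the 2 highest and 2 lowest of each list, and a set of lineage and stress genes. Every other gene named in the text was chosen after its values were seen, among them Tnfaip3, Jun, Fos, Junb and Egr1. Results for 2 genes are not reported here.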

Additional observations from a re-analysis of the deposited data

How the results depend on the processing

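No paired analysis was possible because each tissue gave 1 library. Counts of 2-fold genes depend on the filter. Against the MCP cells, 472 higher and 491 lower genes became 1503 and 2904 with no filter, 18 and 50 at a mean of 50 CPM, and 1 and 9 at 100 CPM. They became 925 and 854 after thinning; 295 were higher with 5 CPM added, 798 were lower against all spleen MCP cells, and 751 were lower in the equal range of UMIs. Against the multipotent-labelled HSC-1 cells, 1154 and 1774 became 1886 and 4613 with no filter, 497 and 436 at 50 CPM, and 274 and 205 at 100 CPM. The 100 CPM filter, the equal range of UMIs and leaving out cells with a T cell second label were chosen after seeing the data; the last gave 572 and 705 genes against the MCP cells.

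Of the log2 ratios of named genes, 6 reversed against the MCP cells: Birc5 after thinning (−2.89), Procr after thinning (−2.07) and in the equal range of UMIs (−1.78), and, in the equal range, Gzmb (1.76), Mcpt1 (1.76) and Prtn3 (−2.56). Against the multipotent-labelled cells 2 reversed after thinning, Ctsg (−0.28) and Naaa (−0.08). The cause was not tested. The other values of named genes stayed the same in 953 cases and moved in 33 against the MCP cells, and stayed the same in 786 and moved in 73 against the multipotent-labelled cells. A list median was counted as reversed only if it was at least 2-fold in the main setting. No list median checked against the MCP cells was of that size, so none could reverse there. Against the multipotent-labelled cells none reversed. The 207067 UMIs of the 147 cells limit what can be seen: a gene at 0 UMIs may stand at up to 14.5 CPM, and genes such as Eif2ak3 could not be compared. Replicate spread between mice cannot be told from these libraries.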
